A study of Mus musculus with 6 samples.

Results

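The 40 genes described here encode heat shock proteins, other chaperones and their co-factors, and were measured in hearts of WT and ACKR4_KO mice 14 days after myocardial infarction. They were chosen by gene symbol, through the Ensembl identifier of each row of the count table. All 40 symbols were found, each in 1 of the 54532 rows, and all 40 were among the 14406 genes tested. Both groups had 3 libraries, 1 per sample, from tissue labelled heart. All 6 samples came from C57BL/6 mice, 8-10 weeks old, with an infarct, so both the controls and the knockouts carry the injury, and no uninjured heart was used here. WT mice were labelled wild type. ACKR4_KO mice lacked the atypical chemokine receptor ACKR4, which takes up chemokines without signalling through G proteins. The sources used here do not give how the allele was made or which part of the heart was taken. Nothing in the labels states that the 3 samples of a group came from 3 animals, so the p-values measure the spread between these samples.

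Heat shock proteins are chaperones: they bind unfolded or partly folded proteins and help them to fold, to be transported or to be degraded. HSP70 proteins work in an ATP-driven cycle with J-domain proteins, which deliver clients, and with HSP110 proteins, which exchange the nucleotide, and they can pass clients on to HSP90. The small heat shock proteins need no ATP, hold clients in a soluble state and are abundant in heart muscle, where several bind sarcomere and cytoskeleton proteins. When unfolded protein accumulates in the cytosol, the transcription factor HSF1 binds heat shock elements and switches on the inducible genes. The endoplasmic reticulum and the mitochondria have chaperones of their own, and those of the reticulum are controlled largely by the unfolded protein response.

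The promoters of some of the genes are shown first, with the letters that correspond to these control elements. The windows run from 250 bases before to 50 bases after a RefSeq start (GRCm38.p6), and 32 of the 40 genes had an entry. A heat shock element was searched as 2 inverted units, GAANNTTC or TTCNNGAA, on both strands, and as 3 alternating units of the same spacing, which contain 2 overlapping matches of the shorter form. The reticulum stress element (ERSE) was searched as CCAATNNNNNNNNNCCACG on both strands. Capitals mark the heat shock element of 2 units in the first 5 windows and the ERSE in the last. Hspa1b, Hspa1a and Hsph1 had the widest gap between ACKR4_KO replicate 2 and every other library. Chordc1, Hspe1 and Hspa5 were added after their values were seen, from the co-chaperones, the mitochondrial and the reticulum chaperones. Each holds a match of the element marked, which not all genes of their classes do.
Hspa1b promoter (chr17:34959189-34959488, minus strand): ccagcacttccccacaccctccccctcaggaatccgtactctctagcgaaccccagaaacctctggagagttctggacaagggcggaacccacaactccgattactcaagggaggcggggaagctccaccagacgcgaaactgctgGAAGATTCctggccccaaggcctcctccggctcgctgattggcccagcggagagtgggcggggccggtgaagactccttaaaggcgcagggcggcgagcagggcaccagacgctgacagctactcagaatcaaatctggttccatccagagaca
Hspa1a promoter (chr17:34972107-34972406, minus strand): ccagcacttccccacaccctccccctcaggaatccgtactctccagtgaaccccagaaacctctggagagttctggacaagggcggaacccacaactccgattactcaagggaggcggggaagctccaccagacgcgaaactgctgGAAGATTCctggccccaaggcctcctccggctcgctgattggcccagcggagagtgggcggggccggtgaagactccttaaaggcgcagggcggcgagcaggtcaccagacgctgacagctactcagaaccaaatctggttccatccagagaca
Hsph1 promoter (chr5:149636287-149636586, minus strand): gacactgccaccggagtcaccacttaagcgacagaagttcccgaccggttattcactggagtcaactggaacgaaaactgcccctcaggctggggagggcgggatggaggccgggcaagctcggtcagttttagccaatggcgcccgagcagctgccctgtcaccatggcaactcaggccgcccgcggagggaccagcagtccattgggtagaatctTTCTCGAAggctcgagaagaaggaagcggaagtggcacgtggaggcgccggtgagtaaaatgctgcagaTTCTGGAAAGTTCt
Chordc1 promoter (chr9:18292017-18292316, plus strand): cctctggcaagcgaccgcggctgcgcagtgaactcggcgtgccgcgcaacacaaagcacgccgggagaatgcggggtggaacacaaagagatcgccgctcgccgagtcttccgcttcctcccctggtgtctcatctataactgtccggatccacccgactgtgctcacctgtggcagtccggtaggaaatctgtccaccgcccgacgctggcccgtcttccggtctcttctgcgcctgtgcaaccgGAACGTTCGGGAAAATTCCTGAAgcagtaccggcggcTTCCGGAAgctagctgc
Hspe1 promoter (chr1:55087898-55088197, plus strand): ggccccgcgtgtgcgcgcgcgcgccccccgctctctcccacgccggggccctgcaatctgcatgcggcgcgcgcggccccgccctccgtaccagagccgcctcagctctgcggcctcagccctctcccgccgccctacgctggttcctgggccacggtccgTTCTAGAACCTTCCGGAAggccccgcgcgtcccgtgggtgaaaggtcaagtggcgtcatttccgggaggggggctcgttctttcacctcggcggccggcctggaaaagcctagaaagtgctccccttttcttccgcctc
Hspa5 promoter (chr2:34771840-34772139, plus strand): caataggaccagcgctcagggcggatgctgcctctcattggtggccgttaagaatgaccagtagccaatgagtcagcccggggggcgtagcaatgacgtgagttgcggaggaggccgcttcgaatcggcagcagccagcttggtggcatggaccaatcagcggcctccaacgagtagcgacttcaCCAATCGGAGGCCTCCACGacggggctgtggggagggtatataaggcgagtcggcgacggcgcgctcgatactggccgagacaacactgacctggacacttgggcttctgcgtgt

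The windows of Hspa1a and Hspa1b differed at 4 of 300 bases and each held 1 match of 2 units, which began 104 bases before the start. Hsph1 held 3 matches, at -33, 37 and 42 relative to the start, the last 2 of which overlap and form 1 element of 3 units. Relative to a second RefSeq start of Hsph1, whose window is not shown, they lie at -54, 16 and 21. Chordc1 held 5 matches around its start, including 3 elements of 3 units. The Hspe1 window held a run with 2 overlapping elements of 3 units, and the same run lies in a window of Hspd1, which is transcribed from the opposite strand. Over all 32 genes, 15 had a match of 2 units in at least one window, where 17.0% of 27025 genes with a window had one. An element of 3 units was found for 5 of the 32 genes (Hsph1, Chordc1, Dnajb6, Hspd1 and Hspe1), where 0.662% of all genes had one. By class, the shorter form was present in 3 of 3 inducible genes with an entry, in 4 of 7 J-domain genes and in 4 of 5 small heat shock protein genes. It was present in 0 of 6 constitutive HSP70, HSP110 and HSP90 genes with an entry. The counts were 2 of 4 for co-chaperone genes, 2 of 4 for mitochondrial genes and 0 of 3 for reticulum genes. Stip1, Ahsa1, Trap1, Dnaja3 and Dnajb9 had no match of any element searched. Hspa8 and Hsp90ab1 of the constitutive class and Hsp90aa1 of the inducible class had no entry and were not searched. The ERSE was present in Hspa5 and Hsp90b1, which are both reticulum chaperones, and in 0.137% of all genes. Such matches describe the letters of a window and do not show that a factor binds there.

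The libraries held between 9422462 and 13910358 counted reads. The 40 chaperone genes took between 0.922% and 1.07% of the reads in 5 libraries and 1.38% in ACKR4_KO replicate 2. The deleted gene was low in every knockout library, with 151 to 169 reads of Ackr4 in WT and 1 to 12 in ACKR4_KO. ACKR4_KO replicate 2 also stood apart in its tissue markers, and results for the 40 genes that rest on it are given with and without it. All 8 cardiomyocyte markers were present, and their summed level was 29447 to 37469 CPM (counts scaled to a common library size with TMM factors) in WT, and 37167, 52717 and 43451 CPM in ACKR4_KO replicates 1, 2 and 3. The 7 fibroblast markers summed to 10214 to 11589 CPM in WT and to 9438, 3833 and 13367 CPM in the same knockout libraries. The 4 red cell markers summed to 607 CPM in ACKR4_KO replicate 2 and to between 124 and 305 CPM elsewhere. In bulk tissue, fewer cells of a type and less RNA per cell cannot be told apart. Lung epithelial markers summed to between 37.0 and 223 CPM in WT and to at most 1.83 CPM in ACKR4_KO. Fast skeletal muscle markers summed to 3.89, 65.8 and 80.7 CPM in WT replicates 1, 2 and 3 and to between 2.42 and 7.28 CPM in ACKR4_KO. The part of either marker list in the results was not tested.

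The comparison of genotypes asked whether chaperone levels in the infarcted heart differ when ACKR4 is missing. At an adjusted p under 0.05 (edgeR, quasi-likelihood), 0 of the 40 genes were called, and 0% of the 14406 genes tested. DESeq2 and limma-voom also called 0 of the 40. At an unadjusted p under 0.05 there were 6 of 40, all higher in ACKR4_KO, where 7.45% of all genes lay under it in either direction with 3.81% higher and 3.64% lower. These were Dnajb5, Stip1, Hspb2, Hspe1, Hspb3 and Hspb1. This count depended on single libraries: it was 13 without ACKR4_KO replicate 1, 3 without replicate 2 and 9 without replicate 3 of that group. Without WT replicates 1, 2 and 3 it was 3, 3 and 1. Over all genes the count moved as well, from 1073 of 14406 with all libraries. It was 1906 of 14565, 985 of 14833 and 1846 of 14756 without ACKR4_KO replicates 1, 2 and 3. Without WT replicates 1, 2 and 3 it was 620 of 14631, 669 of 14742 and 478 of 14598. Not all chaperone genes under 0.05 were higher in these comparisons. Hspa13 was lower without ACKR4_KO replicate 1 or WT replicate 2, and Hspa1a and Hspa1b were lower without ACKR4_KO replicate 2. By sign alone 36 of 40 were higher in ACKR4_KO, beside 52% of all genes, and the median log2 fold change was 0.29 beside 0.01 over all genes. The groups did not overlap in 3 of 40 genes, Hspa4, Hspb3 and Dnajb5, with all 3 higher in ACKR4_KO, beside 14.2% of all genes (6.53% higher and 7.63% lower).

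The libraries of ACKR4_KO were unlike each other. ACKR4_KO replicate 2 was the highest of the 6 libraries for 31 of the 40 genes, where it was the highest for 24.6% of all genes. In 8 of the 40 genes it exceeded every other library more than 1.5-fold, which it did in 1.42% of all genes. These were Hspa1b, Hspa1a, Hsph1, Hsp90aa1, Dnaja1, Hspa8, Chordc1 and Hsp90ab1. No other library exceeded the rest by that factor in any of the 40, although ACKR4_KO replicate 3 did so in 3.47% of all genes, a larger share than that of replicate 2. Without ACKR4_KO replicate 2 the median log2 fold change of the 40 genes was 0.07, and 25 of the 40 were higher, beside 52.2% of all genes. The groups then did not overlap in 8 of the 40, beside 23.2% of all genes: Hspa4, Hspb3 and Dnajb5 were higher in ACKR4_KO, and Hspa1a, Hspa1b, Hsp90aa1, Hspb8 and Dnajb1 were lower. Left out in turn, the other libraries gave medians between 0.22 and 0.41.

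**Figure D1:**
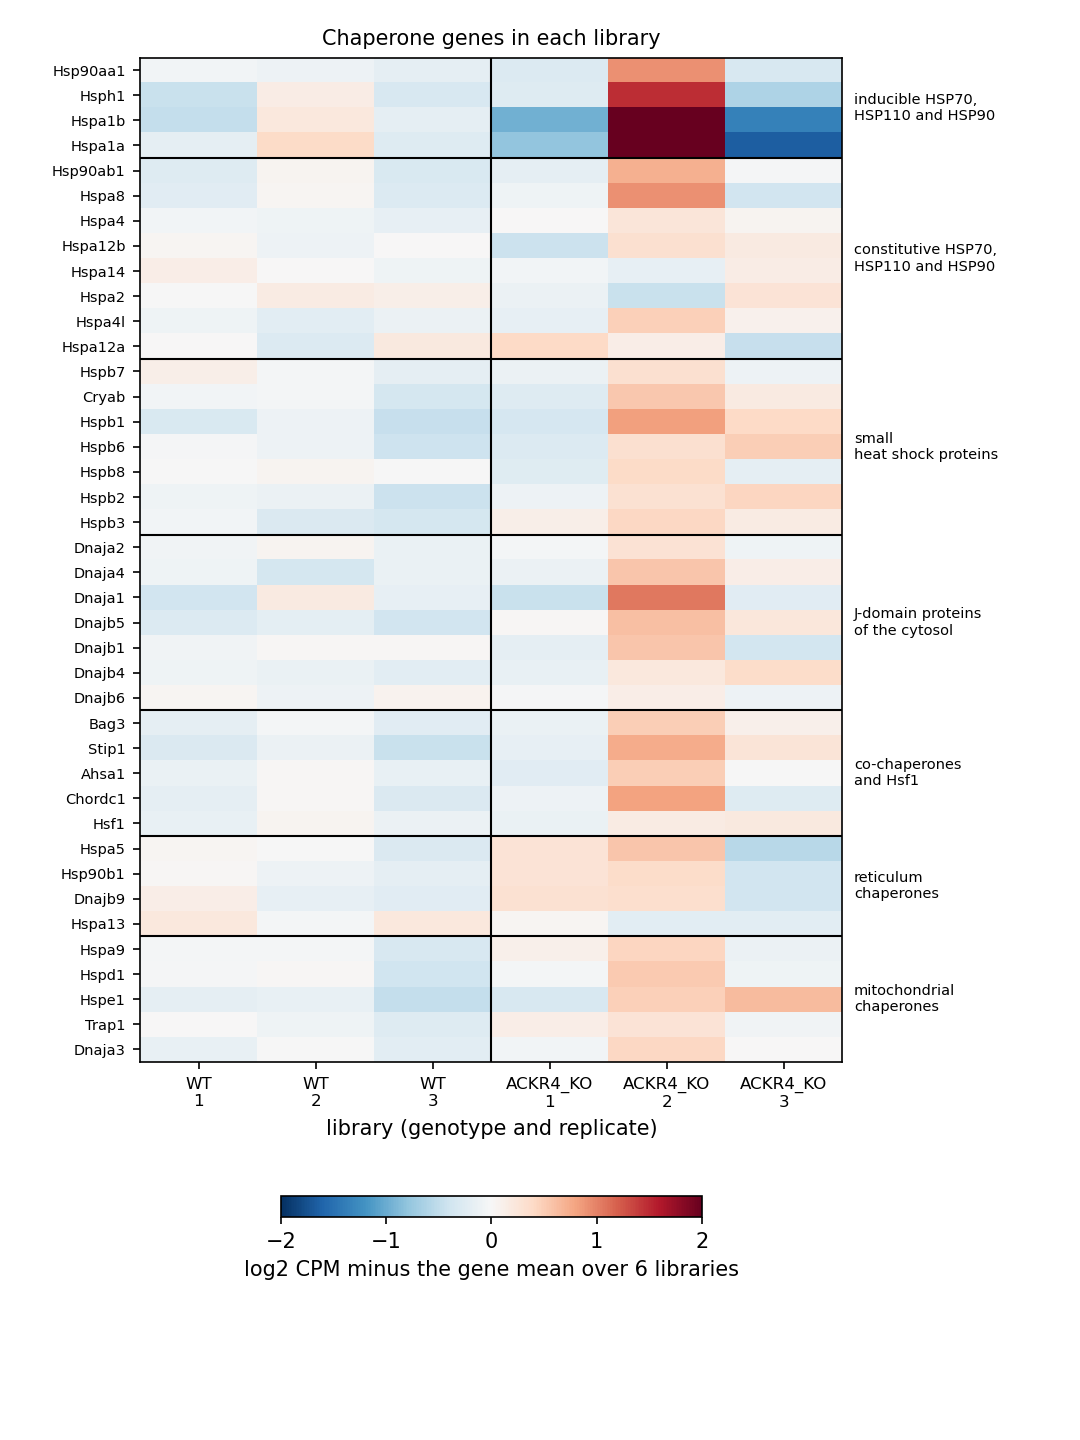
Deviation of log2 CPM from each gene's mean over the 6 libraries (colour, limited to 2 in either direction), for the 40 chaperone genes (rows, grouped by class and ordered by level per kb of exon) in the 3 WT and 3 ACKR4_KO libraries (columns). ACKR4_KO replicate 2 is the highest library for 31 of 40 genes, and Hspa1a and Hspa1b, which pass the upper colour limit there, are lower than every WT library in ACKR4_KO replicates 1 and 3.

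The inducible HSP70, HSP110 and HSP90 genes had the widest spread. Hspa1b, which encodes an inducible HSP70, was at 9.73, 15.6 and 11.9 CPM in WT replicates 1, 2 and 3 and at 6.95, 92.4 and 5.32 CPM in ACKR4_KO replicates 1, 2 and 3. Hspa1a, its copy on chromosome 17, was at 6.77, 9.98 and 6.40 CPM in WT and at 4.44, 44.2 and 2.44 CPM in ACKR4_KO. For both genes ACKR4_KO replicate 2 lay far above all other libraries, 9.33-fold above their mean for Hspa1b and 7.35-fold for Hspa1a, while the other knockout libraries lay below every WT library. Their coding sequences are 99.4% identical, so reads can be split or lost between them, and their sum is the safer value. The sum was 16.5, 25.6 and 18.3 CPM in WT (between 212 and 266 reads) and 11.4, 137 and 7.77 CPM in ACKR4_KO (141, 1333 and 89 reads). As for each gene alone, the knockout group held both the highest and the 2 lowest libraries.

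Hsph1, the HSP110 that exchanges nucleotide on HSP70, was at 39.1, 59.2 and 42.5 CPM in WT and at 44.7, 149 and 34.7 CPM in ACKR4_KO. Hsp90aa1, the inducible cytosolic HSP90, was at 166, 162 and 153 CPM in WT and at 143, 327 and 139 CPM in ACKR4_KO. Replicate 2 of ACKR4_KO was again alone above the WT range in both. Over all 6 libraries the log2 fold changes of the 4 inducible genes were 1.48 ± 1.17 for Hspa1b, 1.13 ± 1.07 for Hspa1a, 0.70 ± 0.56 for Hsph1 and 0.34 ± 0.32 for Hsp90aa1 (± standard error), with adjusted p by edgeR between 0.776 and 0.813. Without ACKR4_KO replicate 2 all 4 turned, and the class median went from 0.91 to -0.62. In that comparison Hspa1a had a log2 fold change of -1.14 ± 0.34 and Hspa1b of -1.01 ± 0.25, levels 2.21-fold and 2.01-fold lower in the 2 remaining knockout libraries. Their adjusted p by edgeR was 0.693 and 0.577. With their unadjusted p they were 2 of 3 chaperone genes under 0.05 there, the other being Dnajb5, which was higher, beside 6.64% of all genes (3.13% higher and 3.51% lower).

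Hspa8, the constitutive HSP70, was at 1111, 1335 and 1072 CPM in WT and at 1219.9, 2451 and 991 CPM in ACKR4_KO. Hsp90ab1, the constitutive HSP90, was at 1036, 1286 and 999 CPM in WT and at 1093, 2017 and 1224 CPM in ACKR4_KO. Both followed the inducible genes in that only ACKR4_KO replicate 2 left the WT range upward, by a smaller factor (2.14-fold for Hspa8 and 1.79-fold for Hsp90ab1 over the mean of the other 5 libraries). Hspa4, an HSP110 relative, was at 155, 150.4 and 142 CPM in WT and at 161, 190.1 and 167 CPM in ACKR4_KO, so its groups did not overlap (log2 fold change 0.21 ± 0.12, adjusted p = 0.701 by edgeR). Hspa4l, a further HSP110 relative, reached 66.0 CPM in ACKR4_KO replicate 2 and lay between 40.7 and 50.3 CPM elsewhere. Hspa2, an HSP70 known for its role in the male germ line, and Hspa14, a ribosome-associated HSP70, went the other way. Hspa2 had its lowest value, 8.81 CPM, in ACKR4_KO replicate 2 (and up to 14.5 CPM elsewhere), as did Hspa14 with 18.5 CPM (19.6 to 23.1 CPM elsewhere). Hspa12b, an HSP70-like protein of endothelial cells, and Hspa12a, a distant HSP70 relative, had log2 fold changes of 0.07 each. The class median was 0.14, and 0.04 without ACKR4_KO replicate 2.

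**Figure D2:**
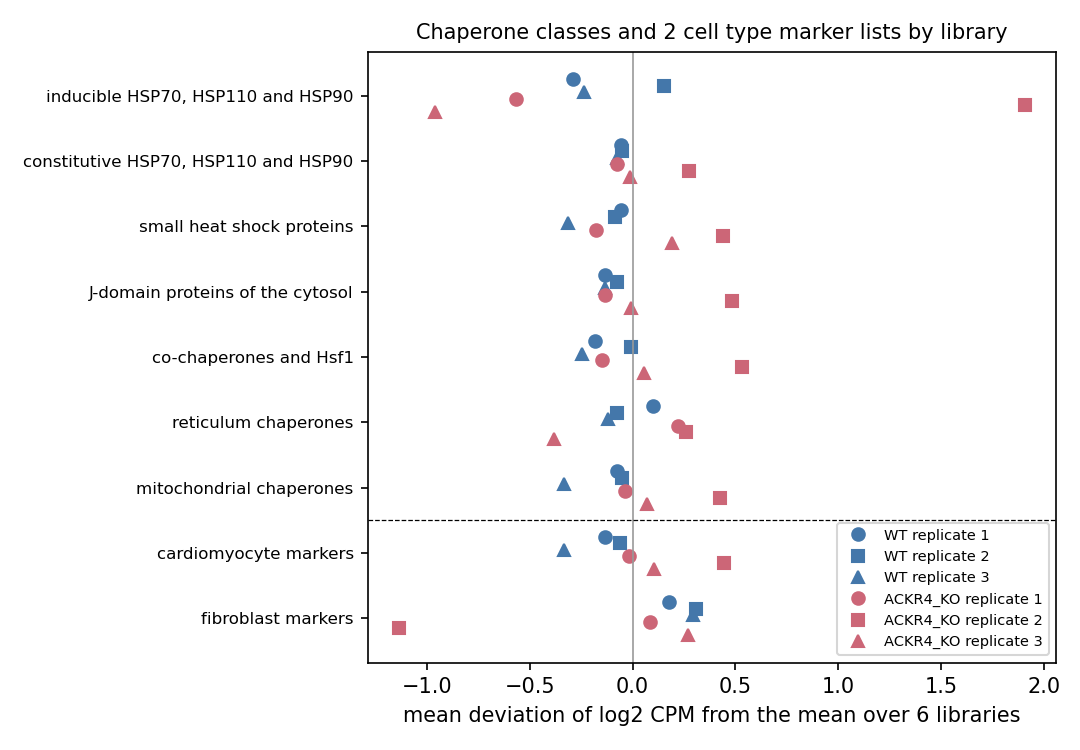
Mean deviation of log2 CPM from the mean over the 6 libraries (x axis) for 7 chaperone classes and for the markers of cardiomyocytes and fibroblasts (y axis). Points are libraries. ACKR4_KO replicate 2 stands at 1.91 for the inducible class, beside 0.44 for small heat shock proteins, 0.43 for mitochondrial chaperones, 0.44 for cardiomyocyte markers and -1.13 for fibroblast markers.

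The small heat shock proteins made up the largest part of the chaperone level per kb of exon, between 51.9% and 59.1% of the sum over the 40 genes in each library, where the constitutive HSP70, HSP110 and HSP90 class made up 18.1% to 23.5% and the inducible class 1.09% to 2.69%. Hspb7, the cardiac small heat shock protein that binds filamin C, had the highest level at 699 CPM per kb, followed by Cryab, the alpha-B crystallin that protects desmin and titin, at 673 CPM per kb. Hspb7 was at 2089, 1868 and 1692 CPM in WT and at 1772, 2404 and 1786 CPM in ACKR4_KO. Cryab was at 938, 946 and 761 CPM in WT and at 812, 1416 and 1097 CPM in ACKR4_KO. The groups overlapped for both genes, with log2 fold changes of 0.08 ± 0.19 and 0.33 ± 0.22.

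Hspb1, the HSP25 of actin filaments, was at 207, 238 and 185 CPM in WT and at 201, 448 and 336 CPM in ACKR4_KO. Hspb2, a partner of Hspb3 in muscle, was at 34.1, 33.4 and 26.7 CPM in WT and at 33.6, 44.5 and 48.5 CPM in ACKR4_KO. Both had 2 knockout libraries above the WT range, replicates 2 and 3, and 1 within it. Hspb3, at 6.92, 5.86 and 5.65 CPM in WT and 7.83, 9.63 and 8.03 CPM in ACKR4_KO, had no overlap between the groups. The log2 fold changes were 0.64 ± 0.27, 0.43 ± 0.17 and 0.46 ± 0.19 for Hspb1, Hspb2 and Hspb3, with adjusted p of 0.664, 0.661 and 0.664 by edgeR. Exons of Hspb2 and Cryab overlap on opposite strands over 252 bases, and the strand setting of the counting is not given, so some Hspb2 reads may belong to the far more abundant Cryab. Hspb6, the HSP20 that is phosphorylated on adrenergic stimulation, reached 774 CPM in ACKR4_KO replicate 3 and 689 CPM in replicate 2, above the WT range of 414 to 542 CPM. Hspb8, which acts with Bag3, went against the class with a log2 fold change of -0.01 ± 0.19: its WT libraries lay between 451 and 470.4 CPM and its knockout libraries at 381, 589 and 397 CPM. The class median was 0.38, and 0.33 without ACKR4_KO replicate 2. With sample quality weights, which gave ACKR4_KO replicates 2 and 3 the lowest weights (0.407 and 0.346), it was 0.12.

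The J-domain proteins split in the same manner. Dnaja1, a main partner of HSP70 in the cytosol, was at 90.9, 135 and 106 CPM in WT and at 87.2, 248 and 102 CPM in ACKR4_KO, so that only replicate 2 of ACKR4_KO left the WT range upward. Dnaja2, a further partner of HSP70, was at 196, 214 and 187 CPM in WT and at 199, 251 and 193 CPM in ACKR4_KO. Dnaja4 was at 59.3, 49.5 and 57.3 CPM in WT and at 58.1, 91.8 and 68.6 CPM in ACKR4_KO. Its exons share 1581 bases with Wdr61 on the other strand, and those of Dnaja1 share 608 bases with Smu1, so both levels may include reads of those genes. Dnajb1, the inducible HSP40, reached 58.4 CPM in ACKR4_KO replicate 2, lay between 37.8 and 40.5 CPM in WT and was below that range in ACKR4_KO replicates 1 and 3, at 35.0 and 30.9 CPM.

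Dnajb5, an HSP40 that takes part in redox control of a histone deacetylase in cardiomyocytes, had the smallest p of the 40 genes. It was at 68.1, 71.6 and 63.3 CPM in WT and at 83.1, 124 and 96.5 CPM in ACKR4_KO. All 3 knockout libraries lay above all 3 WT libraries. The log2 fold change was 0.58 ± 0.16, with an adjusted p of 0.606 by edgeR. Without ACKR4_KO replicate 2 the log2 fold change was 0.41 ± 0.12. Dnajb4, a muscle HSP40, reached 135 CPM in ACKR4_KO replicate 3 and 121 CPM in replicate 2, with 89.5 to 97.7 CPM elsewhere. Dnajb6, which limits protein aggregation at the Z-disc, differed little, with a range of 66.4 to 78.7 CPM over all libraries. The class median was 0.31, and it was -0.02 without ACKR4_KO replicate 2.

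**Figure D3:**
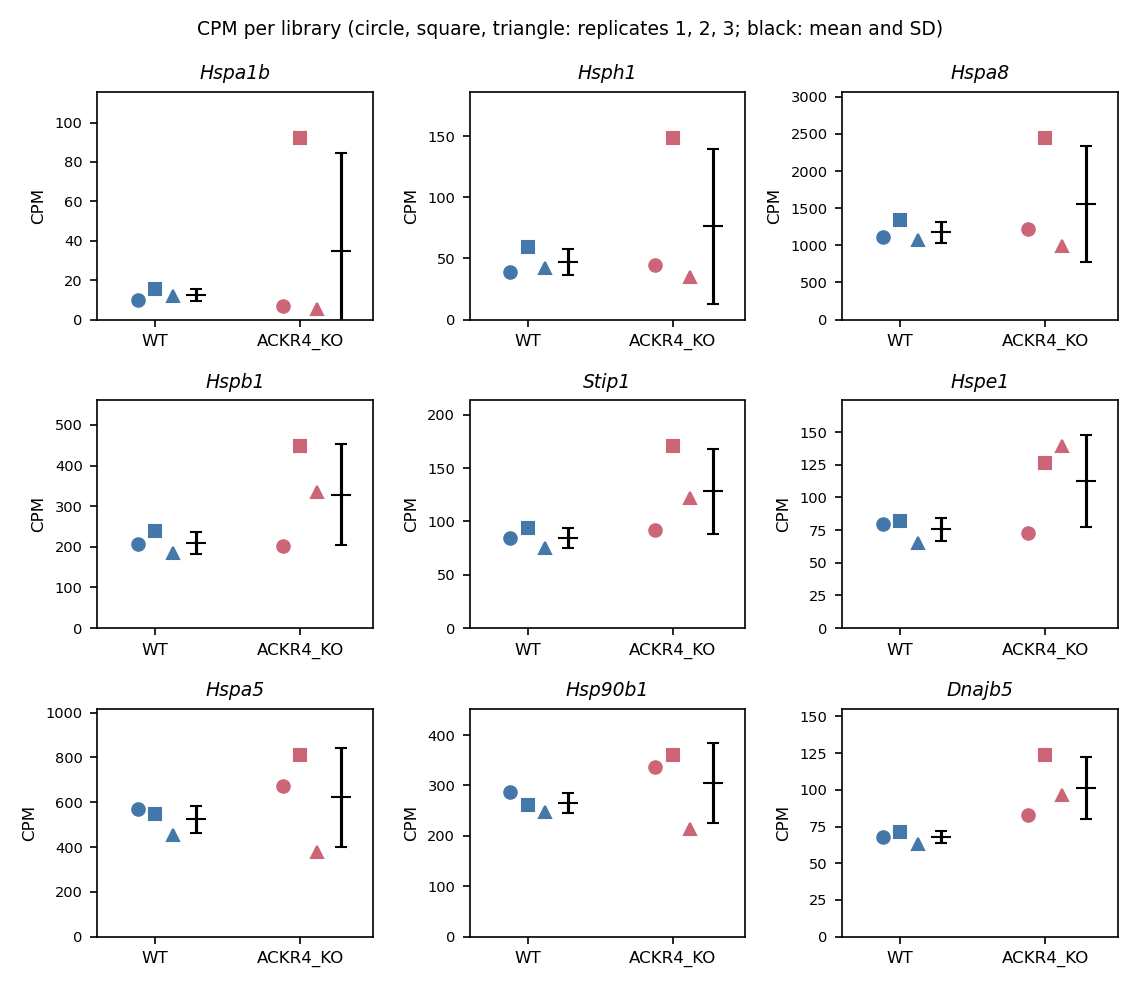
CPM (y axis, from 0) of 9 chaperone genes in the 3 WT and 3 ACKR4_KO libraries (circle, square and triangle are replicates 1, 2 and 3), with the mean and SD in black (n = 3); the lower bar of Hspa1b is limited at 0. Hspa1b, Hsph1 and Hspa8 are above the WT range in ACKR4_KO replicate 2 alone, Hspb1, Stip1 and Hspe1 in replicates 2 and 3, Hspa5 and Hsp90b1 in replicates 1 and 2, and Dnajb5 in all 3.

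Among the co-chaperones, Stip1, which links HSP70 to HSP90, was at 84.2, 94.2 and 75.6 CPM in WT and at 91.7, 171 and 122 CPM in ACKR4_KO. Bag3, which hands HSP70 clients with Hspb8 to autophagy in muscle, was at 143, 159 and 138 CPM in WT and at 147, 227 and 173 CPM in ACKR4_KO. Ahsa1, an activator of the HSP90 ATPase, was at 71.9, 80.0 and 71.1 CPM in WT and at 67.4, 111 and 78.3 CPM in ACKR4_KO. Replicates 2 and 3 of ACKR4_KO exceeded WT for Stip1 and Bag3, and replicate 2 alone did so for Ahsa1. The log2 fold changes were 0.60 ± 0.22 for Stip1 (adjusted p = 0.661 by edgeR), 0.31 ± 0.17 for Bag3 and 0.20 ± 0.18 for Ahsa1. Chordc1, an HSP90 co-chaperone, followed the inducible genes with 67.8 CPM in ACKR4_KO replicate 2 and 31.7 to 39.7 CPM elsewhere. Hsf1, which encodes the heat shock factor itself, was at 30.0 to 34.8 CPM in WT and at 30.4, 37.4 and 38.4 CPM in ACKR4_KO, so ACKR4_KO replicate 3 was its highest library.

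The reticulum chaperones were ordered in another way. Hspa5, the HSP70 of the reticulum (BiP), was at 568, 549.6 and 454 CPM in WT and at 672, 813 and 379 CPM in ACKR4_KO. Hsp90b1, its HSP90 (GRP94), was at 286, 262 and 247 CPM in WT and at 338, 361 and 214 CPM in ACKR4_KO. Dnajb9, a J-domain protein that restrains the stress sensor IRE1, was at 51.7, 42.3 and 40.5 CPM in WT and at 58.2, 59.3 and 36.1 CPM in ACKR4_KO. In all 3 genes replicates 1 and 2 of ACKR4_KO lay above every WT library and replicate 3 below every WT library. The ratio of Hspa5 to Hsp90b1 stayed between 1.77 and 2.25 in the 6 libraries. Hspa13, an HSP70 of microsomes, had the lowest log2 fold change of the 40 genes, -0.26 ± 0.13, with 32.1, 27.0 and 32.2 CPM in WT and 28.4, 24.0 and 24.0 CPM in ACKR4_KO (adjusted p = 0.689 by edgeR). The class median was 0.20, and 0.04 without ACKR4_KO replicate 2.

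Of the mitochondrial chaperones, Hspa9, the HSP70 of protein import (mortalin), was at 532, 535 and 439 CPM in WT and at 586, 740.0 and 505 CPM in ACKR4_KO. Hspd1, the chaperonin HSP60, was at 281, 291 and 217 CPM in WT and at 280.3, 414 and 269 CPM in ACKR4_KO. Hspe1, the HSP10 lid of that chaperonin, was at 79.4, 81.9 and 65.2 CPM in WT and at 72.7, 126 and 139 CPM in ACKR4_KO. Hspd1 was thus above WT in replicate 2 only and Hspe1 in replicates 2 and 3, although both genes share a promoter region. The ratio of Hspe1 to Hspd1 was 0.282 to 0.300 in WT and 0.259, 0.305 and 0.517 in ACKR4_KO, and the high ratio in replicate 3 had no second library beside it. Exons of Hspe1 and Hspd1 overlap over 112 bases on opposite strands. Processed pseudogenes of both exist, and Hspd1-ps3 had 62 to 125 reads per library. Trap1, the HSP90 of mitochondria, and Dnaja3, a J-domain partner of Hspa9, had log2 fold changes of 0.22 ± 0.14 and 0.26 ± 0.15. The log2 fold change of Hspe1 was 0.58 ± 0.23 (adjusted p = 0.661 by edgeR) and the class median was 0.28, with 0.13 without ACKR4_KO replicate 2.

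**Figure D4:**
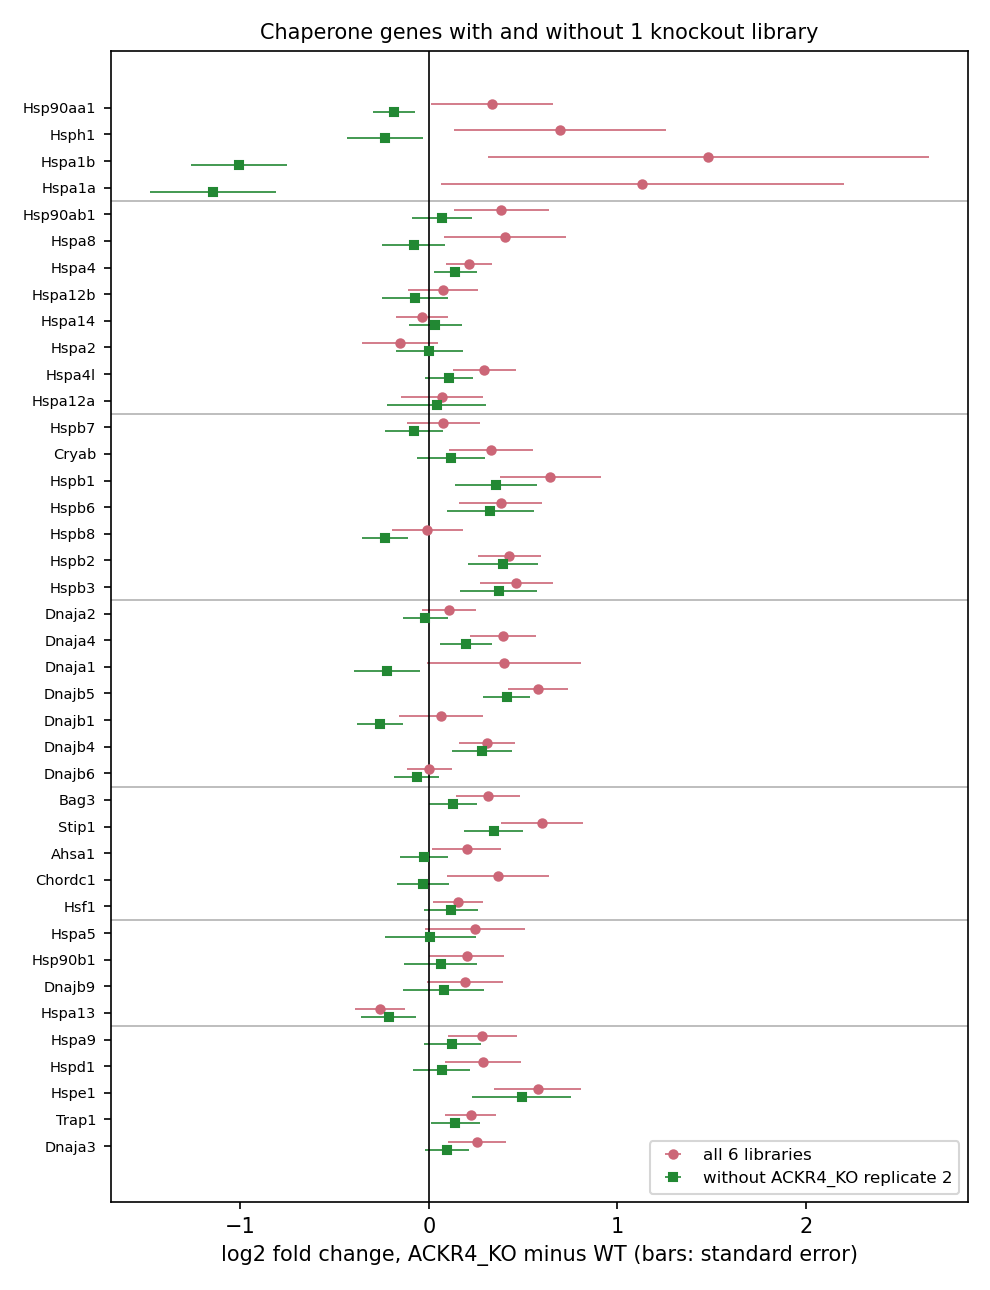
Log2 fold change of the 40 chaperone genes, ACKR4_KO minus WT (x axis, bars are standard errors), with all 6 libraries (circles) and without ACKR4_KO replicate 2 (squares). The 4 inducible genes at the top turn from higher to lower, while Dnajb5, Hspb2, Hspb3 and Hspe1 stay higher.

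Sorted by which knockout libraries exceeded every WT library, the 40 genes fell mainly into 3 patterns. In 15 genes only ACKR4_KO replicate 2 did so, beside 11.6% of all genes, and these were the 4 inducible genes with Hspa8, Hsp90ab1, Hspb7, Hspb8, Dnaja1, Dnaja2, Dnajb1, Dnajb6, Ahsa1, Chordc1 and Hspd1. In 13 genes replicates 2 and 3 did so, beside 9.11% of all genes, among them Hspb1, Hspb2, Hspb6, Cryab, Bag3, Stip1 and Hspe1. In 5 genes replicates 1 and 2 did so, beside 8.1% of all genes, and these were Hspa5, Hsp90b1, Dnajb9, Hspa9 and Trap1. Hspa4, Hspb3 and Dnajb5 exceeded WT in all 3.

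The cardiomyocyte markers moved with most classes across libraries. All 8 markers were higher in ACKR4_KO by sign, beside 52% of all genes, with a median log2 fold change of 0.42. Set against the summed cardiomyocyte markers, the sum of the 40 chaperone genes was 27.7% to 30.0% in WT and 26.4%, 29.5% and 23.4% in the ACKR4_KO libraries. On this scale replicate 2 lay within the WT range and replicates 1 and 3 below it. Small heat shock proteins were at 10.9% to 12.3% of the marker sum in WT and at 9.85%, 10.6% and 10.2% in ACKR4_KO, so every knockout library lay below the WT range. The inducible class was at 0.641% to 0.727% in WT and at 0.534%, 1.16% and 0.418% in ACKR4_KO, so replicate 2 remained above and the other 2 below the WT range. The constitutive class was at 7.22% to 8.19% in WT and at 7.14%, 9.28% and 5.96% in ACKR4_KO, so replicate 2 lay above and the other 2 below the WT range. These percentages are ratios of summed levels and carry no test. The part of muscle content in these or any other chaperone differences was not tested.

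Ratios of partner genes within a library do not depend on scaling, and 7 were computed, chosen after the values were seen. The ratio of Bag3 to Hspb8, which act as one complex, was 0.317, 0.337 and 0.306 in WT and 0.387, 0.385 and 0.436 in ACKR4_KO, without overlap. The ratio of Stip1 to Hsp90ab1 was 0.0813, 0.0733 and 0.0756 in WT and 0.0839, 0.0847 and 0.1001 in ACKR4_KO, also without overlap. For both the exact two-sided permutation p was 0.1, the smallest that 3 against 3 libraries allow, and 0.35 after Benjamini-Hochberg adjustment over the 7 ratios. As the ratios were picked from many possible pairs with their values known, these p-values do not have their usual meaning. The share of all gene pairs without overlap is not given here. The ratio of inducible to constitutive HSP70 (Hspa1a plus Hspa1b to Hspa8) was 0.0148 to 0.0192 in WT and 0.00934, 0.0557 and 0.00784 in ACKR4_KO, and its exact permutation p was 1. The ratio of Hsp90aa1 to Hsp90ab1 was 0.126 to 0.161 in WT and 0.114 to 0.162 in ACKR4_KO, and that of Hspb1 to Cryab 0.221 to 0.252 and 0.248 to 0.316.

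Other folding genes were read from the same test, and 0 of them passed over all genes. Of 27 further cytosolic co-chaperones, 20 were higher in ACKR4_KO (median log2 fold change 0.11), beside 52% of all genes, and 5 had an unadjusted p under 0.05, all higher, beside 3.81% of all genes. Fkbp5, the immunophilin that binds HSP90 in steroid receptor complexes and is induced by glucocorticoids, was at 32.4, 27.0 and 36.4 CPM in WT and at 69.5, 75.7 and 51.6 CPM in ACKR4_KO. Unlike the inducible heat shock genes it was high in all 3 knockout libraries (adjusted p = 0.429 by edgeR). The other 4 were Unc45b, the myosin chaperone of striated muscle, Smyd1, a methyltransferase of muscle that binds myosin, Dnajb2 and Dnajc7, with log2 fold changes between 0.27 and 0.46. The 14 genes of the chaperonin TRiC and of prefoldin, which fold actin and tubulin, were all higher by sign, beside 52% of all genes, with a median of 0.20, and Pfdn2 alone had an unadjusted p under 0.05. ACKR4_KO replicate 2 was the highest library for 12 of these 14, beside 24.6% of all genes. Their summed level was 1154, 1249 and 1063 CPM in WT and 1156, 1528 and 1228 CPM in ACKR4_KO replicates 1, 2 and 3. Only ACKR4_KO replicate 2 thus left the WT range, and the signs of these further lists are given with that library included. Of 20 other reticulum folding genes 13 were higher (median 0.05), with log2 fold changes from -0.24 to 0.45. Manf and Herpud1, both targets of the unfolded protein response, had the highest, 0.45 each, and were the 2 with an unadjusted p under 0.05. Other genes of that response had lower values. Sdf2l1 was at 0.39, Hyou1 at 0.24, Atf6 at 0.23 and Creld2 at 0.19. Calr was at 0.08, Pdia4 at 0.07, Edem1 at 0.05 and Xbp1 at 0.01. Dnajb11 was at -0.04, and Dnajc3 and Sel1l were at -0.15 each. The groups did not overlap in 4 of these 20, beside 14.2% of all genes (6.53% higher and 7.63% lower). Manf and Herpud1 were the 2 higher in ACKR4_KO, and Dnajc10 and P4hb, which act on disulfide bonds, the 2 lower. Of 16 other mitochondrial folding and protease genes 15 were higher (median 0.24), beside 52% of all genes. Phb2 had the highest log2 fold change, 0.38. Dnajc19, at 0.32, was the only 1 with an unadjusted p under 0.05, beside 3.81% of all genes on the higher side.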

How the data were processed

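RNA was sequenced in 6 samples labelled mouse heart, 3 WT and 3 ACKR4_KO, and the labels give the groups. Values deposited by the authors are raw counts of reads for each Ensembl gene. Per the submitters' processing notes, CASAVA 1.8.2, HISAT2 and HTSeq 0.6.0 were used with build mm10. The sources used here give neither annotation nor strand setting. Symbols, coordinates and exon lengths came from GENCODE M21 (GRCm38), which matched 54495 of the 54532 rows.

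The genes and lists were chosen with earlier results of these data known. Genes were kept with filterByExpr (minimum count 10, minimum total 15), scaled by TMM and tested with edgeR 4.0.16 (robust quasi-likelihood, two-sided, Benjamini-Hochberg over 14406 genes, threshold 0.05) in R 4.3.3. The classes follow textbook location and role. Values in every library are given for the 3 genes of each class with the highest level per kb of exon, for those with an unadjusted p under 0.05, and for Hspa1a and Hspa1b; others were named with their values known. The alternatives tried were DESeq2 1.42.0, limma-voom 3.58.1 with and without sample quality weights, scaling by RLE or by the upper quartile, no robust estimation, 2 other filters, removal of mitochondrially encoded and hemoglobin genes, a replicate block, and each library left out. The test was checked on simulated counts. No pair of libraries of the same group agreed within sampling noise, and pairs across the groups were not compared.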

Additional observations from a re-analysis of the deposited data

How the results depend on the processing

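None of the 40 chaperone genes was called under any of the 16 alternatives. Over all genes the count called, 0 with edgeR as reported, was 39 with DESeq2, 24 without a filter on low counts and 6 with the replicate block, and between 0 and 1 with each library left out. Deviations of same-numbered WT and ACKR4_KO libraries correlated at 0.07, 0.05 and 0.13, and those of other pairs between -0.12 and 0.06. With 3 libraries per group these values can neither show nor exclude a pairing. The replicate block called 0 chaperone genes, with 3 of the 40 at an unadjusted p under 0.05. With sample quality weights that count was 1, and with each library left out it was between 1 and 13, beside 6 with all libraries. Over all genes it was 1195 with those weights and between 478 and 1906 with each library left out, beside 1073 with all libraries. The median log2 fold change of the 40 genes was 0.29, between 0.17 and 0.30 under the other settings and between 0.07 and 0.41 with each library left out. By class, the medians with each library left out ran from -0.62 to 1.35 for inducible, 0.04 to 0.26 for constitutive, 0.27 to 0.52 for small, -0.018 to 0.44 for J-domain, 0.12 to 0.45 for co-chaperone, 0.04 to 0.40 for reticulum and 0.13 to 0.40 for mitochondrial genes. In each the lowest value except that of the small class was without ACKR4_KO replicate 2. With limma-voom and sample quality weights the median was 0.12 for small heat shock proteins and -0.02 for the inducible class; the cause was not tested. The ratio of Bag3 to Hspb8 was higher in ACKR4_KO by 0.27 to 0.37 (log2) with each library left out, an alternative added after the data were seen. As its groups did not overlap, leaving out a library could not turn its sign. The number of libraries limits precision: with Hspa1a at 28 to 431 reads per library, counting error is small beside the spread within ACKR4_KO.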

Other observations

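Of protein-coding genes averaging 20 CPM or more, the 10 others with the widest gap between ACKR4_KO replicate 2 and the next library were Ifit1, Oas2, Isg15, H2-T24, Irf7, Hba-a1, Cmpk2, Ifit3, Rtp4 and Bst2. Most of them are interferon-stimulated genes, and Hba-a1 encodes alpha-globin. Ifit1, an interferon-induced RNA-binding protein, was at 84.8 CPM in ACKR4_KO replicate 2 and at 15.02 to 25.4 CPM elsewhere. Among 6965 genes ranked by this gap, Hspa1b was at rank 1, Hsph1 at rank 5 and Hsp90aa1 at rank 10, so inducible chaperones and interferon-stimulated genes were interleaved at the top for this library. The ranking describes 1 library and carries no test.

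The cold-inducible RNA-binding genes Cirbp and Rbm3 were both lowest in ACKR4_KO replicate 2. Their summed level was 76.3 CPM there and 109 to 134 CPM in the other 5 libraries. All 10 immediate early genes, among them Fos, Egr1 and Junb, were lower in ACKR4_KO by sign (median log2 fold change -0.45), where 52% of all genes were higher. Of these 10, 6 had an unadjusted p under 0.05, beside 3.64% of all genes on the lower side. Fos was at 56.5, 15.9 and 25.8 CPM in WT and at 12.8, 5.43 and 5.41 CPM in ACKR4_KO, and Junb at 81.1, 64.7 and 71.4 CPM and at 54.0, 52.1 and 47.5 CPM. Unlike the inducible chaperones, these genes were not highest in ACKR4_KO replicate 2, with 1 exception among the 10.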
